A study of Bos taurus with 11 samples.

Results

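Histotroph is the mixture of proteins, sugars and lipids that the uterine glands and surface epithelium release into the lumen, where it nourishes the embryo before the placenta has formed. On day 7 of the bovine cycle the embryo lies free in the uterus and depends on these secretions, whose composition is under the control of ovarian progesterone. The genes described here are 10 histotroph genes of the endometrium, found by their names among the 24960 distinct gene names of the array: SERPINA14, SPP1, PAEP, RBP4, LTF, GRP, CLU, ANPEP, FOLR1 and CTGF. All 10 were on the array, with 25 probes among its 43653 non-control probes.

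Endometrial biopsies of 11 cows, taken on day 7 of the cycle, were measured on 1-colour Agilent arrays, 1 array for each cow. The 6 fertile cows had conceived to transfer or insemination within 3 tries before the biopsy and conceived again at the next embryo transfer. The 5 subfertile cows had failed 3 times in a row although their genital tracts and cycles showed nothing abnormal; the labels name no treatment and give neither breed nor age. The question the comparison addresses is how endometrial transcripts differ with fertility. Levels are log2 processed signals minus the 75th percentile of the same array, so that 0 is the level of a fairly bright probe. Each difference is the subfertile mean minus the fertile mean of these log2 levels, over 5 and 6 cows. Levels of different probes cannot be compared, because probes differ in how strongly they bind.

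The arrays differed between the groups before any gene was considered. Fertile arrays had median signals of 161 to 452 and 72.0% to 77.4% of probes well above background; subfertile arrays had 54.3 to 92.7 and 64.2% to 74.1%. Arrays of the 2 groups shared 0 slides and 0 scan days among those known, so group, slide and scan day cannot be told apart. The file of fertile cow 6 came without slide or day. In the slide and scan-day settings this array was treated as a slide and a day of its own, and whether it shared either with another array is not known. The number of arrays limits the precision of every value. All 15 epithelial and all 11 stromal marker genes found on the array were bright enough to be tested.

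Of the 25 probes, 23 were bright enough to be tested (well above background on at least 5 of the 11 arrays); the other 2 were probes of PAEP. In the limma fit over all 31876 tested probes, with Benjamini-Hochberg adjustment and a threshold of 0.05, 7 of these 23 were higher in subfertile cows, which is 30.4% against 14.8% of all tested probes. They belonged to CLU (3 probes, of which probes 1 and 2 overlap in sequence), CTGF (2 probes), PAEP and GRP (1 probe each). The members were chosen with earlier results of these data known, so this share is no independent test. Of the same 23 probes, 0 were lower, against 7.38% of all tested probes, although 5 had an unadjusted p below 0.05 in that direction. In either direction 22.2% of all tested probes passed, 4715 higher and 2351 lower. That split moved with the scaling, to 3243 higher and 3146 lower after quantile normalization and to 3202 higher and 3396 lower after centring each array on its median. Of the 23 member probes, 4 were higher and 1 lower after quantile normalization, and 6 were higher and 1 lower after median centring. Subfertile and fertile cows did not overlap at 4 of the 23 probes (17.4%), against 13.5% of all tested probes. By the brightest tested probe of each gene, 4 of the 10 genes were higher, 0 were lower and 6 did not pass, and the median difference was 0.48, against 0.07 over all tested probes. PAEP was counted by its 1 tested probe, while its other 2 probes were well above background on 0 of the 11 arrays. The median of the 10 genes was -0.044 after quantile normalization.

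**Figure D1:**
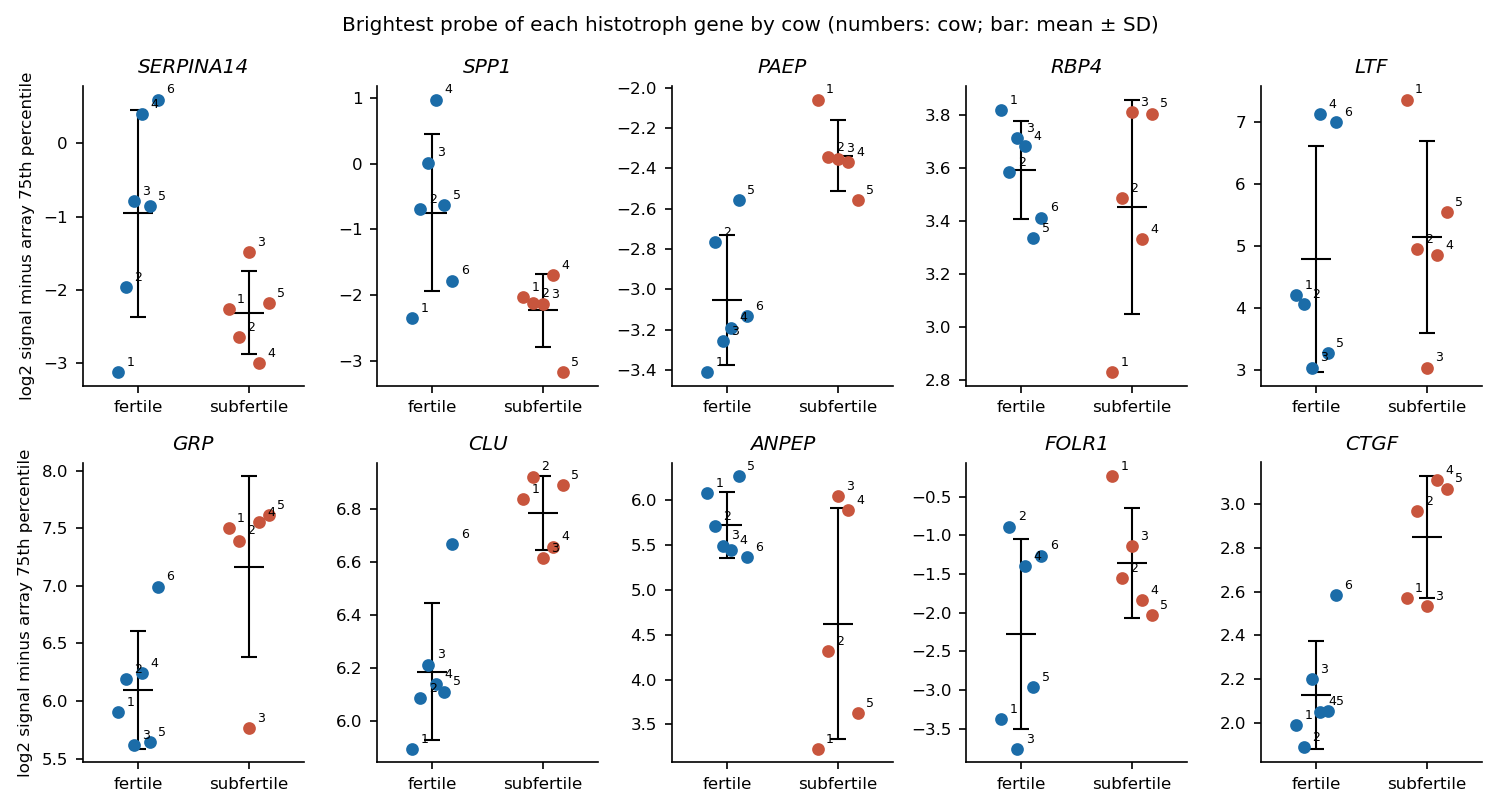
Level of the brightest probe of each of the 10 genes in every cow (vertical axis, log2 signal minus the 75th percentile of the array; each panel has its own scale). Points are cows, numbered within their group, and bars are the mean ± SD of 6 fertile and 5 subfertile cows. PAEP is the panel whose groups do not overlap, while LTF runs from 3.03 to 7.36 across the cows of both groups.

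Matricellular proteins sit in the extracellular space and signal to cells through integrins. SPP1, or osteopontin, is a secreted phosphoprotein that binds integrins and is a classic product of uterine glands. It was read by 1 probe at chr6:37512110-37512169, minus strand, on the build HGSC Btau_3.1 named in the file headers; no gene model of that build was used here, so exons and introns are not given for any probe. The sequence is shown because the whole measurement of SPP1 rests on these 60 bases.
SPP1 probe 1: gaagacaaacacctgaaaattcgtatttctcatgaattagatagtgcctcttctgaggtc

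SPP1 levels were -2.34, -0.69, 0.01, 0.97, -0.64 and -1.78 in fertile cows 1 to 6. In subfertile cows 1 to 5 they were -2.03, -2.11, -2.13, -1.69 and -3.17. Fertile cows 2 to 5 lay above every subfertile cow, while fertile cows 1 and 6 lay among them, so the groups overlapped. The difference was -1.48 ± 0.52 (SE), a level 2.80-fold higher in fertile cows, and did not pass (limma adjusted p = 0.0600; 95% interval -2.62 to -0.35). It passed in 5 of 21 alternatives: without fertile cow 1 (-1.80, limma adjusted p = 0.0242), without fertile cow 6 (-1.69, limma adjusted p = 0.0409), with normexp background correction (-1.13, limma adjusted p = 0.0458), after median centring (-1.58, limma adjusted p = 0.0478) and with the replicate block (-1.69, limma adjusted p = 0.0468). Over the 21 the limma adjusted p ran from 0.0242 to 0.292 and the sign stayed negative. Of 5 osteopontin receptor genes, 4 were tested and 0 passed by their brightest probe in either direction. Differences at these brightest probes ran from -0.33 for the integrin subunit ITGAV to 0.23 for the integrin subunit ITGB1. For ITGAV, 1 of 4 tested probes was lower, though not the brightest.

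CTGF, a CCN family protein that regulates matrix production and cell adhesion, was higher in subfertile cows on both of its probes. Probe 1 lies at chr9:72025881-72025939 and probe 2 at chr9:72026780-72026838, both on the minus strand, 899 bases apart. Levels at probe 1 were 1.99, 1.89, 2.20, 2.05, 2.05 and 2.58 in fertile cows 1 to 6 and 2.57, 2.97, 2.53, 3.11 and 3.07 in subfertile cows 1 to 5. Fertile cow 6 lay at the level of the lowest subfertile cows, and the other 5 fertile cows lay below every subfertile cow. The difference was 0.72 ± 0.16 (SE), a 1.65-fold higher level (limma adjusted p = 0.00861). At probe 2 the levels were -1.05, -1.43, -0.96, -1.63, -1.33 and -1.01 in fertile cows and -0.68, 0.05, -0.65, 0.09 and -0.20 in subfertile cows. The groups did not overlap there, and the difference was 0.96 ± 0.18 (SE), a 1.94-fold higher level (limma adjusted p = 0.00506).

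Of 21 alternatives, both CTGF probes passed in 20; with scan day as a random block neither did, at differences of 0.71 and 0.96 with wider SEs of 0.23 and 0.27 (limma adjusted p = 0.115 and 0.0781). Deviations of the 2 probes from their group means correlated at r = 0.76 over 11 cows that share an array for both probes. Smooth muscle, which also makes CTGF, had 2 of 7 markers higher (28.6%, against 14.8% of all tested probes). Its list mean ran from -1.09 to 0.59 in fertile and from -0.13 to 1.97 in subfertile cows. Of 8 immediate-early genes, which are induced within minutes in handled tissue, 1 was higher (12.5%, against 14.8% of all tested probes). It was FOSB, with a difference of 2.55 (limma adjusted p = 0.00995) and 1 of its 2 tested probes higher. The part of either list in the CTGF difference was not tested. Among the other CCN genes, 4 of 5 were tested and 1 passed (25% lower, against 7.38% of all tested probes). WISP3 was lower by 2.31 on the log2 scale (limma adjusted p = 0.0390), with 1 of its 2 tested probes lower. At that probe 6 fertile and 2 subfertile arrays were well above background. CYR61, of the same family, differed by 0.26 ± 0.53 (SE).

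**Figure D2:**
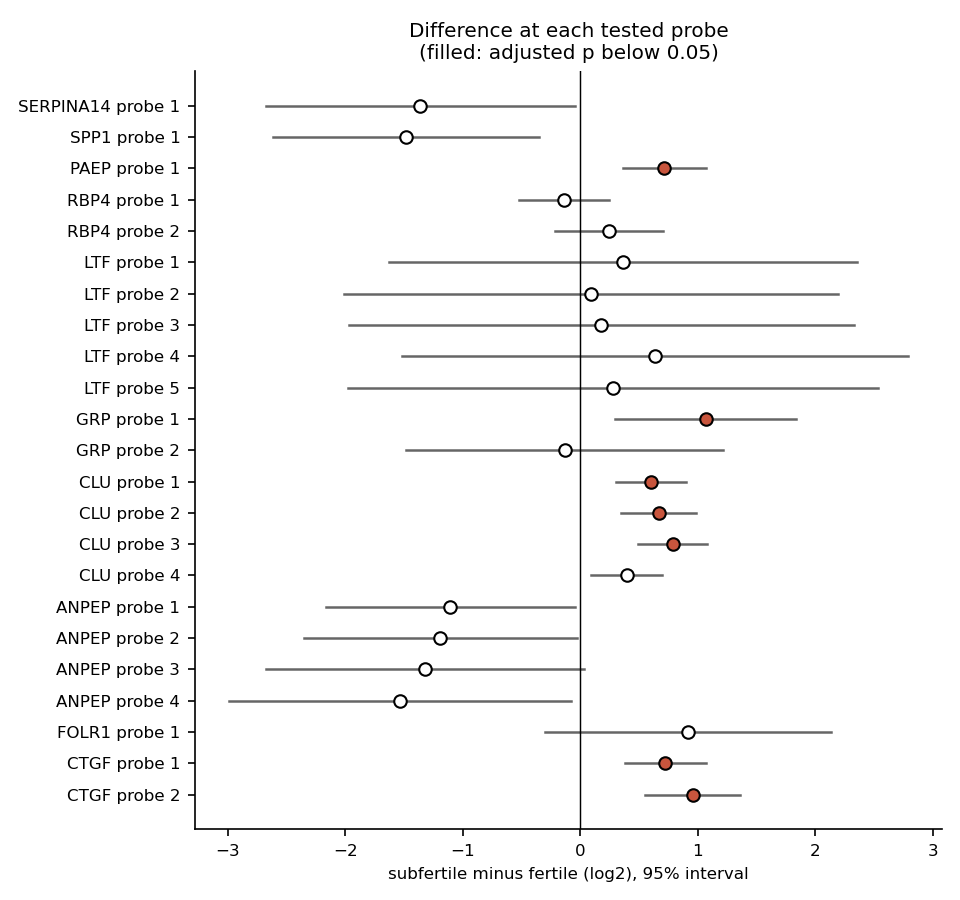
Difference between the groups at each of the 23 tested probes (horizontal axis, subfertile minus fertile in log2; points are estimates from 6 fertile and 5 subfertile cows, lines 95% intervals, filled points an adjusted p below 0.05). The 7 filled points, at GRP, CLU, CTGF and PAEP, all lie to the right of 0, and the 4 ANPEP probes lie to its left with wide intervals.

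Carrier proteins bring vitamins and lipids to the lumen. RBP4, the plasma and uterine carrier of retinol, was read at chr26:15393349-15393408 (probe 1) and chr26:15395370-15395429 (probe 2), minus strand. Probe 1 levels were 3.82, 3.59, 3.71, 3.68, 3.34 and 3.41 in fertile cows and 2.83, 3.49, 3.81, 3.33 and 3.80 in subfertile cows. The groups overlapped, and subfertile cow 1 was the lowest of all 11 cows on this probe. The difference was -0.14 ± 0.18 (SE) at probe 1 (limma adjusted p = 0.605; 95% interval -0.53 to 0.25). At probe 2 it was 0.25 ± 0.21 (SE) (limma adjusted p = 0.431; 95% interval -0.22 to 0.71), so the estimates of the 2 probes differ in sign and both intervals hold 0. Within groups the 2 probes still varied alike, with r = 0.94 for deviations from the group means. Of 9 genes of retinol handling, 8 were tested and 0 passed by their brightest probe. STRA6, the cell surface receptor that takes retinol from RBP4, was nearest, at -1.21 ± 0.42 (SE) (limma adjusted p = 0.0594), with 1 of its 4 tested probes lower. CRABP1, a cellular retinoic acid binding protein, differed by 0.97 ± 0.67 (SE) (limma adjusted p = 0.318).

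PAEP is a secreted lipocalin that carries small lipophilic molecules; in cattle the symbol is also used for the milk protein beta-lactoglobulin. Its 3 probes lie on the plus strand at chr11:107171376-107171436 (probe 1), chr11:107168553-107169732 (probe 2, whose span exceeds its 60 bases by 1120) and chr11:107169745-107169804 (probe 3). They are shown because they disagreed on whether there was signal at all. Probe 1 ends in the letters AATAAA (a polyadenylation signal) and 6 closing adenines, both in capitals in its last 30 bases.
PAEP probe 1, last 30 bases: ttcagcAATAAAggcataaacctgAAAAAA
PAEP probe 2: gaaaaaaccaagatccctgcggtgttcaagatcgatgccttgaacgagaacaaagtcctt
PAEP probe 3: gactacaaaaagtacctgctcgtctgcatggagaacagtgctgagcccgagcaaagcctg

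Probe 1 was well above background on all 11 arrays, and probes 2 and 3 were well above background on 0 of 11. Levels at probe 1 were -3.41, -2.77, -3.26, -3.19, -2.56 and -3.13 in fertile cows and -2.06, -2.35, -2.35, -2.37 and -2.56 in subfertile cows. The groups did not overlap, but only just: fertile cow 5 and subfertile cow 5 both round to -2.56. The difference was 0.72 ± 0.16 (SE), a 1.64-fold higher level (limma adjusted p = 0.01004). With slide as a random block the difference was 0.75 and passed (limma adjusted p = 0.0190); a random block for scan day gave 0.73 with a wider SE of 0.21, which did not pass (limma adjusted p = 0.0863). Among fertile cows the 2 on the second known slide (cows 2 and 5) were 0.67 above the 2 on the first (cows 1 and 3), which is close to the difference between the groups. With 2 cows on each, slide and cow cannot be told apart. What transcript probe 1 read, given the absence of signal well above background at the upstream probes, was not tested.

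FOLR1, a membrane-anchored folate receptor that is also shed, was read by 1 probe at chr15:51297716-51298725, plus strand, a span 950 bases longer than the probe. Its sequence is shown because no second probe checks it.
FOLR1 probe 1: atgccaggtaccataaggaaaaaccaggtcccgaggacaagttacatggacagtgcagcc

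FOLR1 levels were -3.38, -0.89, -3.76, -1.40, -2.97 and -1.26 in fertile cows and -0.24, -1.55, -1.14, -1.84 and -2.04 in subfertile cows. Fertile cows 1, 3 and 5 lay below every subfertile cow, and fertile cows 2, 4 and 6 lay within the subfertile range. The difference was 0.92 ± 0.56 (SE) and did not pass (limma adjusted p = 0.255; 95% interval -0.30 to 2.13). Fertile cows 2 and 5, on the second known slide, were on average 1.64 above fertile cows 1 and 3, on the first. That is more than the difference between the groups, but cows 2 and 5 themselves were at -0.89 and -2.97. With 2 cows on each slide, slide and cow cannot be told apart. By brightest probe this gap ran from -0.30 (RBP4) to 0.67 (PAEP) for the other genes. Of 5 other folate genes, all were tested and 0 passed by their brightest probe, although 1 of the 3 tested probes of SLC46A1 was higher. GGH, the lysosomal hydrolase that trims folate polyglutamates, was nearest at -0.56 ± 0.19 (SE) (limma adjusted p = 0.0573). The related receptor FOLR2 differed by -0.36 ± 0.29 (SE) (limma adjusted p = 0.398).

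SERPINA14, the uterine serpin also called uterine milk protein, is a progesterone-induced glycoprotein of the glands of ruminants. Its single probe lies at chr21:59392443-59392502, minus strand, and is shown because the gene has no second reading.
SERPINA14 probe 1: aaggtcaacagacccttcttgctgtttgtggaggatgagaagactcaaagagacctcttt

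SERPINA14 levels were -3.13, -1.96, -0.78, 0.40, -0.86 and 0.60 in fertile cows and -2.26, -2.65, -1.49, -3.00 and -2.18 in subfertile cows. Fertile cows 3 to 6 lay above every subfertile cow, fertile cow 2 lay within the subfertile range, and fertile cow 1 was the lowest of all 11. The difference was -1.36 ± 0.60 (SE), a level 2.57-fold higher in fertile cows, and did not pass (limma adjusted p = 0.124; 95% interval -2.67 to -0.048). It passed without fertile cow 1 (-1.79, limma adjusted p = 0.0276) and under no other alternative of 21. The within-group SD, 1.12, exceeded that of 98.3% of tested probes. Of 5 other secreted serpins and inhibitors, all were tested and 0 passed, with differences from -0.34 (SERPINE2) to 1.47 (SERPINA1, an antiprotease that was well above background in 3 fertile and 4 subfertile cows).

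LTF, or lactoferrin, is an iron-binding glycoprotein of neutrophil granules and of glandular secretions with antimicrobial action. Its 5 probes lie on the plus strand between chr22:54317888-54320923 (probe 5) and chr22:54347128-54347187 (probe 1). LTF was the most variable of the 10 genes: probe 1 levels were 4.21, 4.06, 3.04, 7.13, 3.27 and 7.01 in fertile cows and 7.36, 4.95, 3.03, 4.85 and 5.54 in subfertile cows. Fertile cows 4 and 6 and subfertile cow 1 were high, subfertile cow 3 and fertile cows 3 and 5 were low, and the groups covered nearly the same range. The within-group SD at probe 1 was 1.71, above that of 99.65% of tested probes, and at probe 5 it was 1.94, above that of 99.8%.

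All 5 LTF probes placed the cows alike. The correlation of deviations from the group means was between 0.994 and 0.999 for the 10 probe pairs, over 11 cows whose arrays the probes share. The difference ran from 0.09 ± 0.96 (SE) at probe 2 to 0.64 ± 0.99 (SE) at probe 4, with limma adjusted p from 0.675 to 0.958. The 95% interval at probe 1 ran from -1.63 to 2.36, so that these cows leave a sizeable difference in either direction possible. The neutrophil list had 6 tested genes, of which 1 (the granule protease ELANE, 1.47, limma adjusted p = 0.00407) was higher (16.7%, against 14.8% of all tested probes). MPO and S100A12 differed by 1.13 and 0.31, S100A8, S100A9 and BPI by -0.58, -0.405 and -0.43, and none of these passed. The median difference of the list was -0.045. The list mean ran from -0.93 to 0.48 in fertile and from -0.099 to 0.59 in subfertile cows. The part of neutrophils in the LTF levels was not tested. CSF3R, CXCR2, PRTN3 and AZU1 gave no tested probe.

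Other secreted defence proteins were described beside LTF. Of 6 such genes 5 were tested. By brightest probe 2 were higher (40%, against 14.8% of all tested probes) and 0 lower (against 7.38%). For TF, 1 of 3 tested probes was lower, though not the brightest. LCN2, a lipocalin that binds bacterial siderophores, was higher by 0.71 ± 0.18 (SE) (limma adjusted p = 0.0156). LYZ, the antibacterial enzyme lysozyme, was higher by 0.38 ± 0.09 (SE) (limma adjusted p = 0.0147), with 1 of its 2 tested probes higher. Its groups did not overlap, as at 13.5% of all tested probes. PIGR, which carries immunoglobulin A across epithelia, differed by 0.63 ± 0.78 (SE) (limma adjusted p = 0.595). The transferrin receptor TFRC differed by -0.41 ± 0.25 (SE) (limma adjusted p = 0.264).

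**Figure D3:**
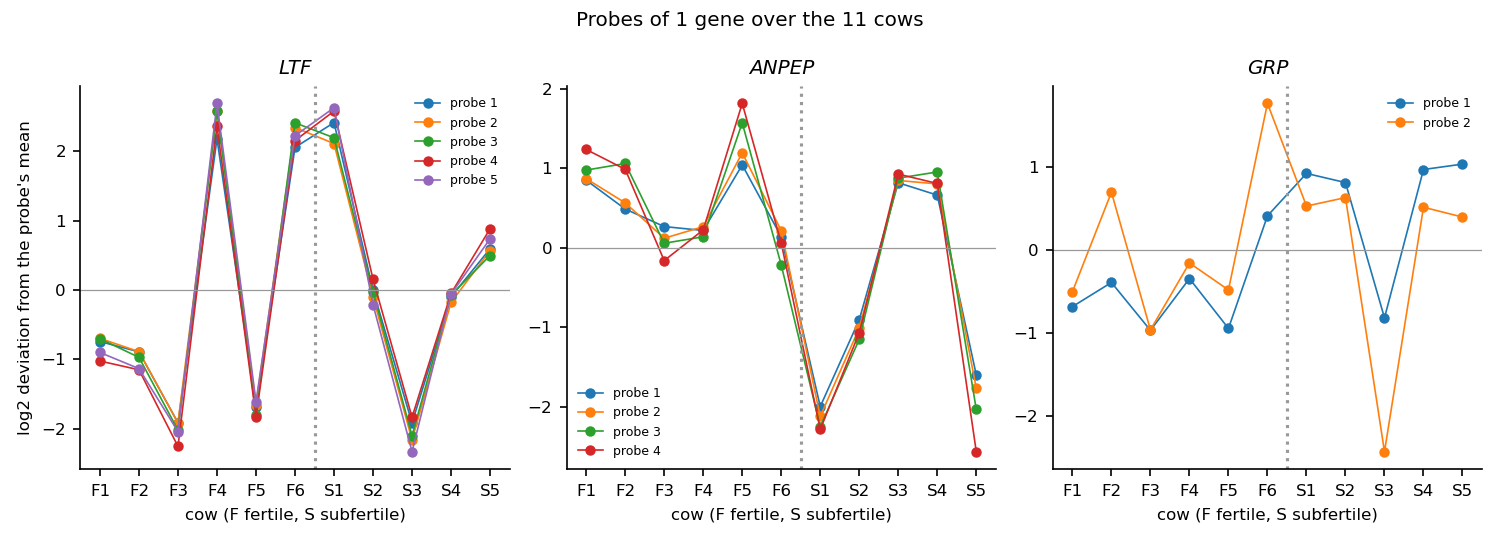
Deviation of each probe of LTF, ANPEP and GRP from its own mean over the 11 cows (vertical axis, log2; horizontal axis, fertile cows F1 to F6 and subfertile cows S1 to S5; lines join the values of 1 probe and imply no order of cows). The 5 LTF probes rise and fall together at r of at least 0.994, the 4 ANPEP probes are low in S1, S2 and S5, and both GRP probes are low in S3.

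CLU, or clusterin, is a secreted chaperone that binds misfolded proteins and lipids and is abundant in many epithelial fluids. Of its 4 probes, all on the minus strand, probes 1 to 3 lie within chr8:11291513-11292018 and probe 4 lies at chr8:11303229-11303288. Levels at probe 3 were 4.09, 4.26, 4.17, 4.26, 4.36 and 4.85 in fertile cows and 5.09, 5.20, 4.97, 5.11 and 5.22 in subfertile cows. The groups did not overlap, and fertile cow 6 stood nearest to the subfertile range. The difference was 0.79 ± 0.13 (SE), a 1.73-fold higher level (limma adjusted p = 0.00298), and it was the only one of the 23 probes that passed in all 21 alternatives. Its largest limma adjusted p among these was 0.0476, with scan day as a random block.

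At CLU probe 1, the brightest, fertile cows were at 5.89, 6.09, 6.21, 6.14, 6.11 and 6.67 and subfertile cows at 6.84, 6.92, 6.61, 6.66 and 6.89. Fertile cow 6 overlapped the subfertile range and the other 5 fertile cows lay below it. The difference was 0.60 ± 0.14 (SE), a 1.52-fold higher level (limma adjusted p = 0.0103), which turned to -0.091 (limma adjusted p = 0.609) after quantile normalization. Probe 2 differed by 0.67 ± 0.15 (SE) without overlap (limma adjusted p = 0.00895), and by 0.036 after quantile normalization (limma adjusted p = 0.848). Probe 4 differed by 0.40 ± 0.14 (SE) and did not pass (limma adjusted p = 0.0600), except without fertile cow 6 (0.49, limma adjusted p = 0.0131), with the replicate block and with normexp. With scan day as a random block probes 1 and 2 were at 0.58 and 0.65 and did not pass (limma adjusted p = 0.117 at each).

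Probes 1 and 2 of CLU are not independent readings, because they overlap by 26 bases and share all but 1 of them. The overlap is shown with the differing base in capitals, G10A counted from 1 at the 5′ end of the overlap, with the base of probe 1 first.
CLU probe 1, bases 35 to 60: tcacgggaaGaacttgctcgcatgcc
CLU probe 2, bases 1 to 26: tcacgggaaAaacttgctcgcatgcc

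CLU deviations correlated at r = 0.46 to 0.91 over the 6 probe pairs, lower than for LTF or ANPEP, whose within-group spread was larger. Of 2 clusterin receptor genes 1 was tested: LRP8, a lipoprotein receptor, was lower by 1.38 on the log2 scale (SE 0.39, limma adjusted p = 0.0272), with 2 of its 2 tested probes lower. Of 15 tested epithelial markers 7 were higher by their brightest probe (46.7%, against 14.8% of all tested probes) and 0 lower (against 7.38%). Their list mean ran from -0.67 to -0.088 in fertile and from 0.051 to 0.49 in subfertile cows, and did not overlap between the groups, as did 13.5% of all tested probes taken singly. Their part in these differences was not tested, and in a biopsy more cells of a type and more RNA per cell cannot be told apart. The leukocyte gene PTPRC was lower by 0.95 on the log2 scale (limma adjusted p = 0.00894), without overlap, with 1 of its 2 tested probes lower. Of 11 tested stromal markers 2 were higher (COL3A1 and DCN, 18.2%) and 2 lower (FBN1 and FN1, 18.2%) by their brightest probe. For COL3A1 2 of 10 tested probes were higher and 2 lower, and for DCN 1 of 9 was higher. Of 6 tested endothelial markers 2 were higher (33.3%) and 0 lower. Of 8 tested macrophage markers 0 were higher and 1 was lower (12.5%).

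**Figure D4:**
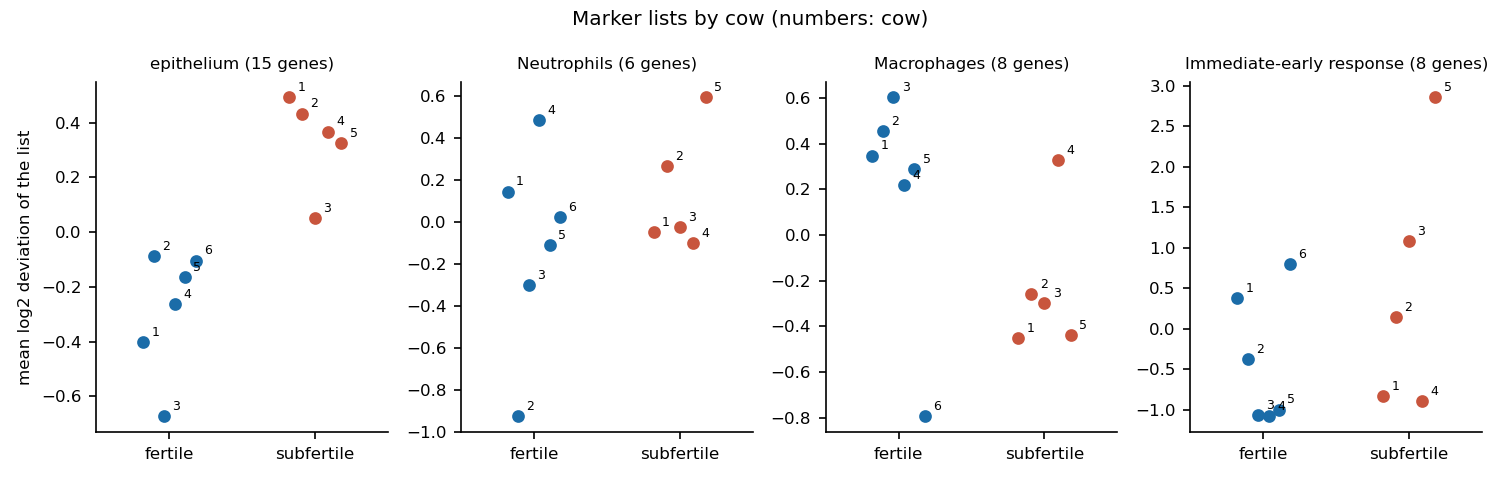
Mean deviation of 4 marker lists in each cow (vertical axis, log2 deviation from the mean over the 11 cows, averaged over the tested genes of the list; points are cows, numbered within their group). Epithelial markers do not overlap between groups (at most -0.088 in fertile and at least 0.051 in subfertile cows), and the other 3 lists overlap.

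GRP encodes gastrin-releasing peptide, a secreted neuropeptide that bovine and ovine uterine glands make in quantity in the luteal phase. Probe 1 lies at chr24:60582286-60582345, plus strand; the files place probe 2 nowhere in the genome. A stretch of each is shown because the probes overlap in part: the longest run of letters they have in common is 15 bases, in capitals.
GRP probe 1, bases 31 to 60: tttccTTTGTGCAAAATACTtaactattct
GRP probe 2, bases 1 to 30: TTTGTGCAAAATACTcaactatgaccttgt

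Levels at probe 1 were 5.90, 6.19, 5.62, 6.24, 5.64 and 6.99 in fertile cows and 7.50, 7.39, 5.77, 7.55 and 7.62 in subfertile cows. Subfertile cows 1, 2, 4 and 5 lay above every fertile cow, while subfertile cow 3 lay among the lowest fertile cows. GRP was higher in subfertile cows by 1.07 ± 0.35 (SE), a 2.10-fold higher level (limma adjusted p = 0.0487). This result was at the edge of the threshold: leaving out any 1 of 9 cows ended the call (limma adjusted p up to 0.109) with differences of 0.956 to 1.097, and it was kept without fertile cow 6 or subfertile cow 3 (1.42 without the latter, limma adjusted p = 0.00520). It did not pass after quantile normalization (0.31, limma adjusted p = 0.510), after median centring (0.98, limma adjusted p = 0.0765), with slide as a random block (1.03, limma adjusted p = 0.169) or with scan day (1.02, limma adjusted p = 0.313).

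At GRP probe 2, a dim probe well above background on 5 fertile and 4 subfertile arrays, the levels were -6.22, -5.02, -6.68, -5.87, -6.20 and -3.96 in fertile and -5.19, -5.09, -8.14, -5.20 and -5.32 in subfertile cows. Its difference was -0.13 ± 0.62 (SE) (limma adjusted p = 0.900), opposite in sign to probe 1, but deviations of the 2 probes correlated at r = 0.97 and subfertile cow 3 was low on both. Without subfertile cow 3 it was 0.46 (limma adjusted p = 0.502), and with normexp background correction it was 1.05 (limma adjusted p = 0.000837), where the median over all probes was 0.33. The receptor GRPR was near background, on 4 fertile and 2 subfertile arrays, and differed by 0.43 ± 0.20 (SE) (limma adjusted p = 0.145).

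ANPEP, or aminopeptidase N, is a zinc peptidase of epithelial apical membranes that is shed into uterine fluid. Its 4 probes on the minus strand span chr21:20950990-20951049 (probe 1, nearest to the 3′ end of the gene among the 4), chr21:20951083-20951142, chr21:20956582-20956641 and chr21:20965628-20965687 (probe 4). Probe 1 levels were 6.08, 5.71, 5.49, 5.44, 6.27 and 5.36 in fertile cows and 3.23, 4.32, 6.04, 5.89 and 3.62 in subfertile cows. Subfertile cows 1, 2 and 5 lay below every fertile cow and subfertile cows 3 and 4 lay within the fertile range. The same 3 cows were below all fertile cows on each of the 4 probes.

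The ANPEP differences were -1.11 ± 0.49, -1.19 ± 0.53, -1.32 ± 0.62 and -1.53 ± 0.67 (SE) at probes 1 to 4. None of the 4 passed (limma adjusted p = 0.119 to 0.146), although 3 of them had 95% intervals below 0. The within-group SD of probe 1 was 0.37 in fertile and 1.29 in subfertile cows. Without subfertile cow 3 probe 1 was at -1.46 (limma adjusted p = 0.0424) and probe 2 at -1.56 (limma adjusted p = 0.0486), and without subfertile cow 4 probe 2 passed at -1.55 (limma adjusted p = 0.0478). With all cows kept, probe 1 passed with normexp background correction (-1.19, limma adjusted p = 0.0395) and after quantile normalization (-1.52, limma adjusted p = 0.0483). Probe 4 was at -0.33 with normexp (limma adjusted p = 0.439), and subfertile cow 5 (-5.85) was not well above background on it. Deviations correlated at 0.965 to 0.997 over the 6 probe pairs. Of 3 other surface peptidases 1 was tested, the neprilysin gene MME, with a difference of -0.10 ± 0.25 (SE) (limma adjusted p = 0.814).

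Of 9 other proteins of uterine fluid 7 were tested. By brightest probe 1 was higher (14.3%, against 14.8% of all tested probes) and 0 lower (against 7.38%). For C3, 1 of 6 tested probes was higher, though not the brightest. NPC2, a cholesterol-binding protein, was higher by 0.36 ± 0.12 (SE) (limma adjusted p = 0.0482), with 1 of its 3 tested probes higher. TIMP2, an inhibitor of matrix metalloproteinases, differed by 0.40 ± 0.15 (SE) (limma adjusted p = 0.0790) by its brightest probe, and 1 of its 3 tested probes was higher. Over all 50 receptor, carrier and related genes, 48 were on the array, 41 were tested, 3 were higher (LCN2, LYZ and NPC2; 7.32%, against 14.8% of all tested probes) and 2 lower (LRP8 and WISP3; 4.88%, against 7.38%), with a median difference of 0.03. These shares are below those of the array as a whole. The count of 2 lower genes was 0 without fertile cow 1, 3 or 5 or subfertile cow 1, 2 or 5, it was 1 without fertile cow 2 or 4, and it was 4 without fertile cow 6. With scan day as a random block 0 were higher and 0 lower.

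The 10 genes varied between cows of a group by very different amounts. By brightest probe the SD within groups was 0.21 for CLU, 0.26 for CTGF, 0.27 for PAEP, 0.30 for RBP4 and 0.65 for GRP, against 0.90 for ANPEP, 0.96 for SPP1, 1.035 for FOLR1, 1.12 for SERPINA14 and 1.71 for LTF. PAEP, CLU and CTGF passed with differences of 0.60 to 0.72, whereas SERPINA14, SPP1 and ANPEP did not pass with differences of -1.48 to -1.11.

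Deviations from the group means were compared for all 45 pairs of the 10 genes, with an exact two-sided permutation of cows within groups (86400 orders). After adjustment over the pairs 0 passed; 8 had an unadjusted p below 0.05 by Pearson's r and 6 by Spearman's rho, 4 of the 8 positive. LTF and GRP varied most alike (r = 0.76, exact p = 0.00529; rho = 0.81, exact p = 0.00675; adjusted p = 0.115 and 0.101), and r was 0.90 without the 2 cows farthest from the median of LTF. PAEP and RBP4 went in opposite directions (r = -0.66, exact p = 0.00677; rho = -0.64, exact p = 0.0330; adjusted p = 0.115 and 0.253; r = -0.61 without 2 cows). LTF and ANPEP did so as well (r = -0.64, exact p = 0.00767; rho = -0.73, exact p = 0.00304; adjusted p = 0.115 and 0.101; r = -0.52 without 2 cows). With deviations from scan-day means, in place of group means, r was 0.77, -0.86 and -0.77 for these 3 pairs. The unadjusted exact p, by permutation of cows within days (480 orders), was 0.0708, 0.0188 and 0.0438. Fertile cows 4 and 6 were each alone in a day as grouped here, so they had no deviation and added nothing to r.

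**Figure D5:**
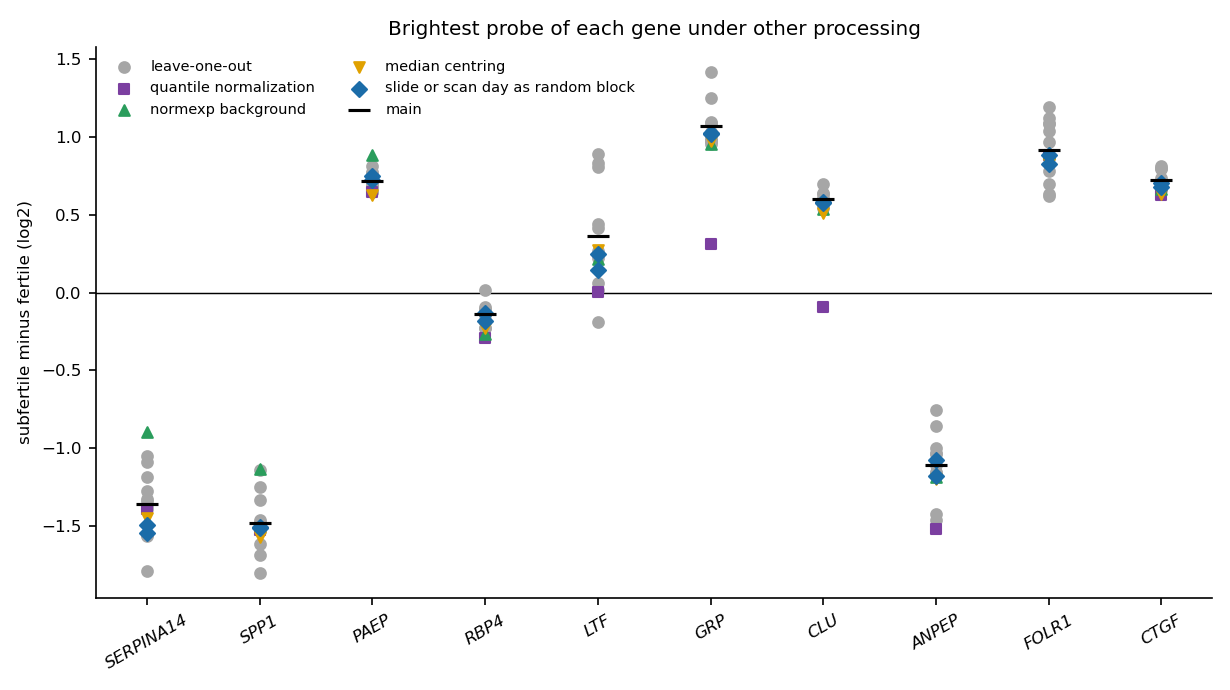
Difference of the brightest probe of each gene (vertical axis, subfertile minus fertile in log2) in the main setting, on leaving out each cow, and under other processing. GRP and CLU fall to 0.31 and -0.091 after quantile normalization, LTF and RBP4 cross 0 on leaving out a cow, and SERPINA14, SPP1 and ANPEP stay below 0 and PAEP, FOLR1 and CTGF above 0 in every setting drawn.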

How the data were processed

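Scanner intensities come from Agilent Feature Extraction, version 10.5.1.1 in the submitters' processing notes; the deposited processed signal is background-subtracted on a linear scale, per the file headers. A second deposited table holds log2 values; set against the scanner signals, these were 75th-percentile scaled and centred per probe (within 0.01 for 100% of probes relative to fertile cow 2, except 17% for fertile cow 1); its direction is that of the signal. The scanner file of fertile cow 6 has its gene names out of register and was joined by probe. Outlier flags (1 to 156 spots an array) and control spots were left out, and 0 spots were saturated. From the log2 signal of each spot the array's 75th percentile was taken off, and replicate spots were then averaged by probe. The test was limma's (version 3.58.1, R 4.3.3) with lmFit and eBayes and group as the only term, a step also tested on simulated data. A gene is represented by its brightest tested probe. All 10 genes are named; partner and marker genes are named where they passed or are direct partners of a member. Partner and marker names were matched through the gene table of assembly ARS-UCD2.0, which named 20595 probes by accession, 10745 by symbol and 376 by older symbol, while 11937 kept the file's name. The members and lists were chosen with earlier results of these data known. Alternatives were normexp background correction (offset 50), quantile normalization, median centring, the authors' table, other filters, leaving out single cows, blocks for slide, for scan day and for replicate number, and another variance model. Replicate numbers are shared by the groups but mark different animals.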

Additional observations from a re-analysis of the deposited data

Results flagged for a closer look

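In 46 groups of cows, 1 for each tested probe and fertility group, the gap between the most extreme cow and its neighbour was divided by the range of the group; chance sets about 1 in 20 such groups apart, and 3 were. GRP probe 1 was low in subfertile cow 3 (5.77 against 7.39 to 7.62 in the other 4; gap over range 0.880, critical value 0.71). GRP probe 2 was low in the same cow (-8.14 against -5.32 to -5.09; gap over range 0.923). CLU probe 3 was high in fertile cow 6 (4.85 against 4.09 to 4.36 in the other 5; gap over range 0.645, critical value 0.625).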

How the results depend on the processing

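Against 7 probes called higher, the count was 6 to 8 on leaving out 1 cow, 4 after quantile normalization and 1 with a random block for scan day. Called lower were 0 to 2 on leaving out 1 cow, 2 with normexp, 1 after quantile normalization and 1 after median centring. By gene the higher count of 4 was 2 after quantile normalization and 0 with scan day; the lower count of 0 was 2 with normexp, 1 after quantile normalization, 1 after median centring and 0 to 2 on leaving out 1 cow. The median of the genes was -0.044 after quantile normalization. Partner genes called higher (3) were 7 with normexp and 0 with scan day; those called lower (2) were 1 with normexp, 4 after median centring, 0 with slide or scan day and 0 to 4 on leaving out 1 cow. Over all probes 17081 passed with normexp, 12179 without a filter, 3670 with slide, 975 with scan day and 4526 to 7297 on leaving out 1 cow (4526 without subfertile cow 2), against 7066. Of the gene pairs 1 passed after median centring and 0 to 1 on leaving out 1 cow.

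Signs turned for GRP probe 2 (1.05 with normexp; -0.33 to 0.46 on leaving out 1 cow), CLU probe 1 (-0.091 after quantile normalization), RBP4 probe 1 (-0.23 to 0.017 on leaving out 1 cow) and 4 LTF probes; of these only GRP probe 2, with normexp, was past the threshold after turning. LTF probe 2 was at -0.0031 after median centring, -0.066 with slide and -0.15 with scan day, and LTF probe 3 at -0.064 with scan day. On leaving out 1 cow LTF probes 1, 2, 3 and 5 ran from -0.19 to 0.89, -0.43 to 0.64, -0.34 to 0.73 and -0.34 to 0.90, each lowest without subfertile cow 1 and highest without subfertile cow 3. The causes were not tested.

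With the replicate block, which uses cows 1 to 5 of each group and leaves fertile cow 6 without weight, 7 probes were higher and 1 (SPP1, -1.69, limma adjusted p = 0.0468) lower, 1 gene was lower, 4 partner genes were lower, PAEP probe 1 did not pass (limma adjusted p = 0.0622) and GRP probe 2 was at 0.21; 4761 of all probes passed. The numbers do not pair the cows: deviations of same-numbered cows correlated at -0.21 to 0.22. Signal over background limits GRP probe 2 and ANPEP probe 4 among the tested member probes. It also limits GRPR, TFRC, SERPINA1, WISP3, MPO, S100A9 and BPI. No depth applies to arrays.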
